A study of Mus musculus with 9 samples.

Results

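The small leucine-rich proteoglycans are secreted matrix proteins with a core of leucine-rich repeats, most of which carry sugar chains. Decorin (Dcn), biglycan (Bgn), asporin (Aspn), lumican (Lum), fibromodulin (Fmod), osteoglycin (Ogn), proline and arginine rich end leucine rich repeat protein (Prelp), osteomodulin (Omd) and podocan (Podn) were taken by symbol from a count table of sorted mouse fibroblasts. They are 9 of 27370 genes in that table, each stood on 1 row, and all 9 passed the filter on low counts that left 15103 genes for testing. The filter keeps a gene that is high in any group, so Omd and Aspn were tested although they had 0 counts in all depleted libraries.

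PolyA RNA was compared over 3 groups of 3 libraries. RPF depleted are red pulp fibroblasts, the reticular fibroblasts of the spleen's blood-filtering red pulp, from mice given diphtheria toxin. RPF steady are the same cells from untreated mice. FRC steady are fibroblastic reticular cells, the stroma that builds the conduits of lymph nodes, from untreated mice. All mice were 4 months old and carried Wt1CreERT2, RosatdTomato and CD64DTR, so the controls hold the toxin receptor too. Wt1CreERT2 marks cells that use the Wt1 promoter, and CD64DTR is a toxin receptor placed under the CD64 gene of monocytes and macrophages. The labels do not describe how Cre was induced. RPF were sorted as tdTomato+ and FRC as tdTomato- from CD45- cells stained for gp38, CD31 and VCAM1. A library is a pool of 2 mice, and 6 mice gave the 45000 cells of a group. The 12 mice in all mean that FRC and RPF steady came from the same animals, and the labels do not say which libraries share them. No toxin was given to the untreated mice, so an effect of the toxin and an effect of the cells it removes cannot be told apart.

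Total counts ran from 25414645 to 43879806 per library. Of these, the 9 members took 105428 to 128646 counts in RPF depleted, 155956 to 262656 in RPF steady and 1103207 to 1239856 in FRC steady. Genes of the Y chromosome had 24 counts in RPF steady replicate 1 and 69 in FRC steady replicate 1, against 2315 to 6124 in the other 7 libraries. The sort was checked against spleen stroma factors (Wt1, Tcf21, Tlx1, Nkx2-5 and Nkx3-2), whose levels summed to 469 to 610 CPM in RPF depleted, 1207 to 1445 in RPF steady and 1.77 to 6.16 in FRC steady. Wt1 itself drives the reporter and is no independent check. Podoplanin (Pdpn, the gp38 antigen), a marker of lymph node reticular cells, stood at 0.0733 CPM in RPF depleted, 0.0981 in RPF steady and 74.1 in FRC steady. Cells were stained for gp38 in the sort, so Pdpn is no independent check either. It was 1 of 5 reticular stroma genes, out of 6, that were lower in RPF steady than in FRC steady. The other, Pdgfrb, was higher, at 2331 CPM in RPF depleted, 942 in RPF steady and 515 in FRC steady. The 6 genes of red pulp macrophages (Spic, Cd5l, C1qa, C1qb, C1qc and Hpgd) summed to 1.41 to 5.15 CPM in RPF depleted, 148 to 185 in RPF steady and 51.3 to 67.7 in FRC steady. The depleted libraries held the lowest macrophage signal, with 2 to 5 of the 6 genes at 0 in each.

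Small leucine-rich proteoglycans bind collagen fibrils through their concave face and set how thick and how regularly spaced fibrils become. Dcn, Bgn and Aspn form a class, in which Dcn and Bgn carry chondroitin or dermatan sulfate chains. Lum, Fmod, Prelp and Omd belong to a class that can carry keratan sulfate, and Ogn and Podn stand in further classes. Soluble Bgn and Dcn are also known to bind transforming growth factor beta and to signal through Toll-like receptors on macrophages. In lymphoid organs reticular fibroblasts make the collagen cores of the reticular fibres along which leukocytes move.

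Levels are TMM-scaled CPM, the reads of a gene relative to all reads of its library, and differences come from an edgeR quasi-likelihood fit over all 15103 genes, with Benjamini-Hochberg adjusted p-values and calls at an adjusted p under 0.05. The sorted samples are bulk RNA, in which fewer cells of a type and less RNA per cell cannot be told apart.

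The upstream sequences of 4 members are shown because these genes give the main patterns over the 3 groups, a choice made with their values known. Bgn and Prelp remained abundant in steady-state red pulp, and Fmod and Aspn were far lower there than in lymph nodes. Each is the 250 bases before the RefSeq start in build GRCm38.p6, printed 5′ to 3′ on the gene's strand. Bgn is chrX:73483351-73483600 on the plus strand, Prelp chr1:133921402-133921651 on the minus strand, Fmod chr1:134037004-134037253 on the plus strand and Aspn chr13:49544193-49544442 on the plus strand. Capitals mark matches, on either strand, to the TATA box letters TATAAA, the CCAAT box letters CCAAT, the GC box letters GGGCGG or the AP-1 site letters TGANTCA.
Bgn: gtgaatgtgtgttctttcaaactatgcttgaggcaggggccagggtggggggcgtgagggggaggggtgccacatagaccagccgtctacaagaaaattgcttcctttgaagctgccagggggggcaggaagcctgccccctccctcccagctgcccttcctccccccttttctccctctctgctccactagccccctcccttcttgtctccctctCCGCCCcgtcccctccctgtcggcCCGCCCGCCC
Prelp: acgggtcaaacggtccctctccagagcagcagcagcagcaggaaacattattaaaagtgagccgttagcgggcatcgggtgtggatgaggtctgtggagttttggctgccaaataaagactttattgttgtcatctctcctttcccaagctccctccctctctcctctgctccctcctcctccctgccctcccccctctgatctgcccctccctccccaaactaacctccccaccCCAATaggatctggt
Fmod: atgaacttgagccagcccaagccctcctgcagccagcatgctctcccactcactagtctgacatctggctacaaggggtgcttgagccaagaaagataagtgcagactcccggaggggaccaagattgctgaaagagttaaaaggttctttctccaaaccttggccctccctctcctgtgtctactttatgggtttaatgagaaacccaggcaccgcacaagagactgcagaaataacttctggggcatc
Aspn: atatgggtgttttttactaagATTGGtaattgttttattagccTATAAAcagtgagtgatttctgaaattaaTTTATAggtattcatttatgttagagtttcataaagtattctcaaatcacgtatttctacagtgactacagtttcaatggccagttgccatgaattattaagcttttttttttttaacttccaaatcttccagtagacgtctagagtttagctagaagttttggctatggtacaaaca

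The Bgn window held 3 GC boxes, of which the last 2 overlap, and 64.4% G or C bases. The Prelp window held 1 CCAAT box at positions -15 to -11 and 55.6% G or C. The Fmod window, at 51.2% G or C, held none of the 4 motifs. The Aspn window, at 30.0% G or C, held 2 TATA box matches, at positions -207 to -202 and -178 to -173, and 1 CCAAT box match. Over 32851 promoter windows of the same length, 12.4% held the TATA box letters, 33.8% the CCAAT box, 32.7% the GC box and 6.75% the AP-1 site, with a median of 52.4% G or C. These matches describe the letters of the windows and are not evidence of a bound factor. RefSeq windows were matched for 7 of the 9 members, all but Dcn and Lum.

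Red pulp fibroblasts at steady state differed from lymph node FRC in nearly the whole family. Of the 9 members, 7 were called lower in RPF steady than in FRC steady (Dcn, Lum, Fmod, Ogn, Omd, Aspn and Podn), 1 was called higher (Bgn) and Prelp was not called. Among all genes tested, 14.4% were called lower and 11.5% higher, 25.9% in either direction. The median log2 fold change of the 9 members was -5.80, beside -0.02 over all genes tested. For 8 members the libraries of the groups did not overlap, as for 44.6% of all genes tested.

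Dcn, best known for restraining fibril width and for holding transforming growth factor beta, had 30.2, 47.1 and 14.4 CPM in RPF steady and 24183, 28713 and 27809 CPM in FRC steady. It was 878-fold lower in RPF steady (log2 -9.78, SE 0.52, adjusted p 3.4e-06). In FRC steady it ranked 3 by mean CPM among the 13110 protein-coding genes tested, and in RPF steady it ranked 4923. Lum, which lies next to Dcn on chromosome 10 and guides fibril spacing, had 6.09, 13.2 and 4.53 CPM in RPF steady and 5166, 6130 and 4956 CPM in FRC steady. It was 679-fold lower in RPF steady (log2 -9.41, SE 0.63, adjusted p 1.03e-05) and ranked 19 in FRC steady. Every RPF steady library lay far below every FRC library for both genes.

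Bgn, the closest relative of Dcn, went the other way. It had 4479, 4649 and 4745 CPM in RPF steady and 2740, 2835 and 3039 CPM in FRC steady, and every RPF library was above every FRC library. It was 1.61-fold higher in RPF steady (log2 0.69, SE 0.10, adjusted p 0.000914) and ranked 8 there by mean CPM, against 46 in FRC steady. Prelp, a basic member that anchors basement membranes to collagen, had 307, 448 and 380 CPM in RPF steady and 277, 313 and 316 CPM in FRC steady. Its groups overlapped, and the log2 difference of 0.32 (SE 0.19, adjusted p 0.269) was not called. Both values depend on scaling: without TMM, which multiplied the FRC levels relative to RPF, the median log2 fold change of all genes moved to 0.55. Under that scaling by total count alone, Prelp had 361, 536 and 453 CPM in RPF steady and 229, 249 and 242 CPM in FRC steady (log2 0.91, adjusted p 0.00712), and Bgn had a log2 difference of 1.27.

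Fmod, which binds collagen and competes there with Lum, had 5.45, 13.5 and 7.41 CPM in RPF steady and 274, 278 and 187 CPM in FRC steady. It was 27.95-fold lower in RPF steady (log2 -4.80, SE 0.49, adjusted p 0.000118). Ogn, also called mimecan, had 7.77, 12.0 and 6.25 CPM in RPF steady and 648, 358 and 451 CPM in FRC steady, a level 55.9-fold lower in RPF steady (log2 -5.80, SE 0.57, adjusted p 9.84e-05). Every RPF steady library lay below every FRC library for both genes.

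Podn, a collagen-binding member of its own class, had 1.94, 1.15 and 0.298 CPM in RPF steady and 141, 187 and 182 CPM in FRC steady. It was 147-fold lower in RPF steady (log2 -7.20, SE 0.65, adjusted p 5.66e-05), with a log2 difference of -7.80 without RPF steady replicate 1. Aspn, which binds collagen and calcium and lacks the sugar chains of its class, had 0.0639, 1.72 and 0.562 CPM in RPF steady and 40.2, 43.5 and 18.5 CPM in FRC steady. Its level was 43.1-fold lower in RPF steady (log2 -5.43, SE 1.12, adjusted p 0.0123), from 3, 87 and 17 counts. Without RPF steady replicate 3 the adjusted p for Aspn was 0.0557, and without RPF steady replicate 2, which gave most of its RPF counts, the log2 difference was -6.80. Omd, a keratan sulfate member known from bone, had 0, 3 and 0 counts in RPF steady and 17.8, 8.33 and 20.04 CPM in FRC steady. The ratio of FRC steady to RPF steady was 669, with a 95% counting interval of 229 to 3249 (adjusted p 0.00267). Without RPF steady replicate 2, which held all 3 counts, Omd was at least 404-fold lower in RPF steady. These 3 genes were thus near or at the limit of detection in red pulp fibroblasts and present in all FRC libraries.

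**Figure D1:**
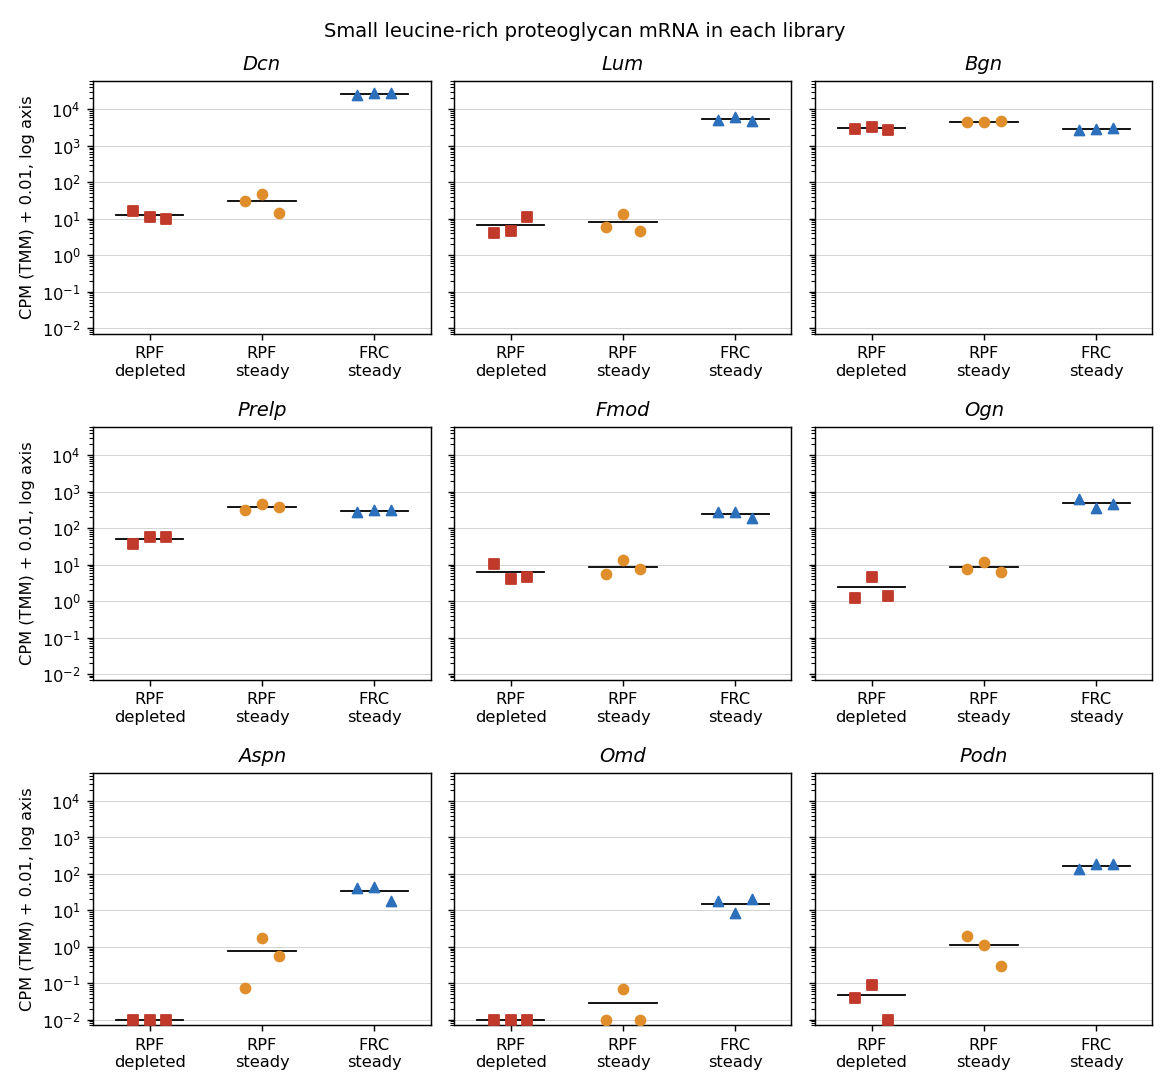
CPM of each of the 9 members, with 0.01 added, on a log axis in RPF depleted, RPF steady and FRC steady, with a point for each library and a line for the group mean. Bgn stays between 2740 and 4745 CPM in all 9 libraries, whereas Dcn lies between 9.73 and 47.1 CPM in the RPF libraries and between 24183 and 28713 CPM in the FRC libraries.

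Because transcripts differ in length, levels were compared between members per kilobase of the median transcript length. In FRC steady the order of mean level per kilobase was Dcn, Lum, Bgn, Ogn, Prelp, Fmod, Podn, Aspn and Omd. Dcn averaged 15302 ± 1364 CPM per kb, Lum 2213 ± 256 and Bgn 1884 ± 100.3 (SD, n = 3 libraries). The libraries of Ogn and Prelp, of Prelp and Fmod, and of Aspn and Omd overlapped, and the other neighbours stood apart. In RPF steady the order began with Bgn at 3035 ± 88.3 CPM per kb, Prelp at 171 ± 31.6 and Dcn at 17.4 ± 9.31, each apart from the next. Fmod, Ogn and Lum followed at 4.82, 3.38 and 3.24 CPM per kb with overlapping libraries, and Podn, Aspn and Omd, again overlapping, came last.

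The family's make-up therefore differed between the groups. The 9 members held 0.306 to 0.365% of all counts in RPF depleted, 0.568 to 0.621% in RPF steady and 2.77 to 3.09% in FRC steady. Of the summed CPM per kb, Bgn made up 97.9 to 98.3% in RPF depleted, 92.5 to 94.7% in RPF steady and 8.76 to 9.83% in FRC steady. In FRC steady Dcn made up 75.2 to 77.7% and Lum 9.94 to 11.8%. Prelp made up 0.841 to 1.37% in RPF depleted and 4.46 to 6.11% in RPF steady. Shares of 1 sum move together, so a lower share of one member is partly the higher share of another.

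**Figure D2:**
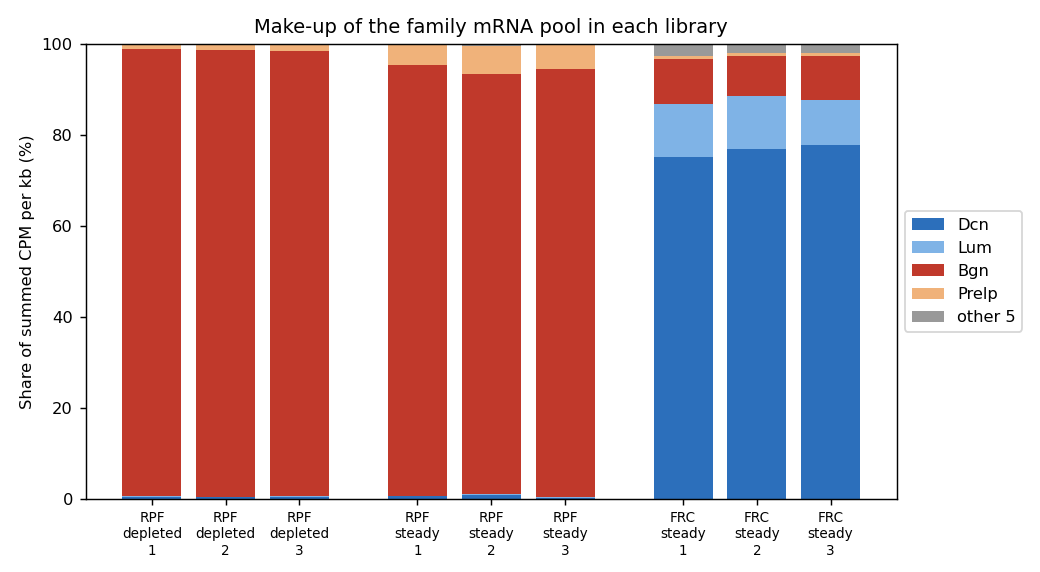
Share of the summed CPM per kb of the 9 members, in percent, as a stacked bar for each library of RPF depleted, RPF steady and FRC steady, with Fmod, Ogn, Aspn, Omd and Podn drawn as 1 segment. Bgn fills 92.5 to 98.3% of every RPF bar, and Dcn fills 75.2 to 77.7% of every FRC bar.

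The comparison of RPF depleted with RPF steady asks how red pulp fibroblasts change after toxin treatment of mice whose macrophages carry the receptor. With edgeR, 0 members were called higher and 6 were called lower in RPF depleted (Prelp, Bgn, Podn, Ogn, Dcn and Aspn), where 11.1% of all genes tested were called higher and 9.96% lower, 21% in either direction. The count of higher members was 0 at an unadjusted p under 0.05 too, and 0 with DESeq2 and limma-voom. Lum, Fmod and Omd were not called. The groups did not overlap for 5 members, as for 44.4% of all genes tested. The median log2 fold change of the 9 members was -1.88, or -1.60 over the 8 with a fold when Aspn stands at its bound, beside -0.09 over all genes tested.

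Prelp had the firmest difference. It had 36.9, 56.6 and 56.6 CPM in RPF depleted and 307, 448 and 380 CPM in RPF steady, and every steady library stood far above every depleted one. It was 7.56-fold lower in RPF depleted (log2 -2.92, SE 0.21, adjusted p 5.22e-05). By mean CPM its rank among protein-coding genes was 3526 in RPF depleted and 296 in RPF steady. Bgn had 2959, 3391 and 2781 CPM in RPF depleted and 4479, 4649 and 4745 CPM in RPF steady, without overlap. It was 1.52-fold lower in RPF depleted (log2 -0.60, SE 0.10, adjusted p 0.00253), and it was still the most abundant member, at rank 21 among protein-coding genes. The calls of Prelp and Bgn held under all 19 other settings.

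Podn had 0.0287, 0.0810 and 0 CPM in RPF depleted, which are 1, 3 and 0 counts, and 1.94, 1.15 and 0.298 CPM in RPF steady. It was 30.6-fold lower in RPF depleted (log2 -4.93, SE 0.86, adjusted p 0.00376). The size rests on few counts: the log2 difference was -6.18 without RPF depleted replicate 2, -4.30 without RPF depleted replicate 3 and -4.32 without RPF steady replicate 1, and the call held each time. Aspn had 0 counts in every depleted library against 3, 87 and 17 counts in RPF steady. Set against a floor of 3 counts over the depleted group, it was at least 32.6-fold lower in RPF depleted (adjusted p 0.0206). Aspn passed the filter only through its FRC steady counts, and a fit of the compared groups alone did not test it. The adjusted p for Aspn was 0.0513 without RPF depleted replicate 1 and 0.0525 without RPF depleted replicate 3, and without RPF steady replicate 2, which held 87 of the 107 steady counts, it was 0.047. The bound itself was at least 10.1-fold without that library and 20.05 to 50.0 without any other single library.

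Ogn had 1.18, 4.51 and 1.38 CPM in RPF depleted and 7.77, 12.0 and 6.25 CPM in RPF steady. It was 3.69-fold lower in RPF depleted (log2 -1.88, SE 0.50, adjusted p 0.0279), and the groups did not overlap. Its adjusted p lay above the threshold without RPF depleted replicate 1 (0.0854), RPF depleted replicate 3 (0.0937), RPF steady replicate 1 (0.0572) or RPF steady replicate 2 (0.0995). Without RPF depleted replicate 2, its highest depleted library, the log2 difference was -2.75. Dcn had 15.9, 11.3 and 9.73 CPM in RPF depleted and 30.2, 47.1 and 14.4 CPM in RPF steady, and the groups overlapped. It was 2.49-fold lower in RPF depleted (log2 -1.32, SE 0.37, adjusted p 0.0338). The adjusted p of Dcn lay above the threshold without RPF depleted replicate 2 (0.104), RPF depleted replicate 3 (0.112), RPF steady replicate 1 (0.0758) or RPF steady replicate 2 (0.116).

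Lum had 4.19, 4.56 and 11.1 CPM in RPF depleted and 6.09, 13.2 and 4.53 CPM in RPF steady, with overlapping groups (log2 -0.26, SE 0.45, adjusted p 0.756). Fmod had 10.2, 4.08 and 4.44 CPM in RPF depleted and 5.45, 13.5 and 7.41 CPM in RPF steady, again overlapping (log2 -0.50, SE 0.43, adjusted p 0.471). At 704 to 1166 counts per group these genes were measured, and the SD between libraries was larger than the difference between the group means. Omd, with 0 counts in RPF depleted and 3 in RPF steady, gave no fold (adjusted p 0.254).

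**Figure D3:**
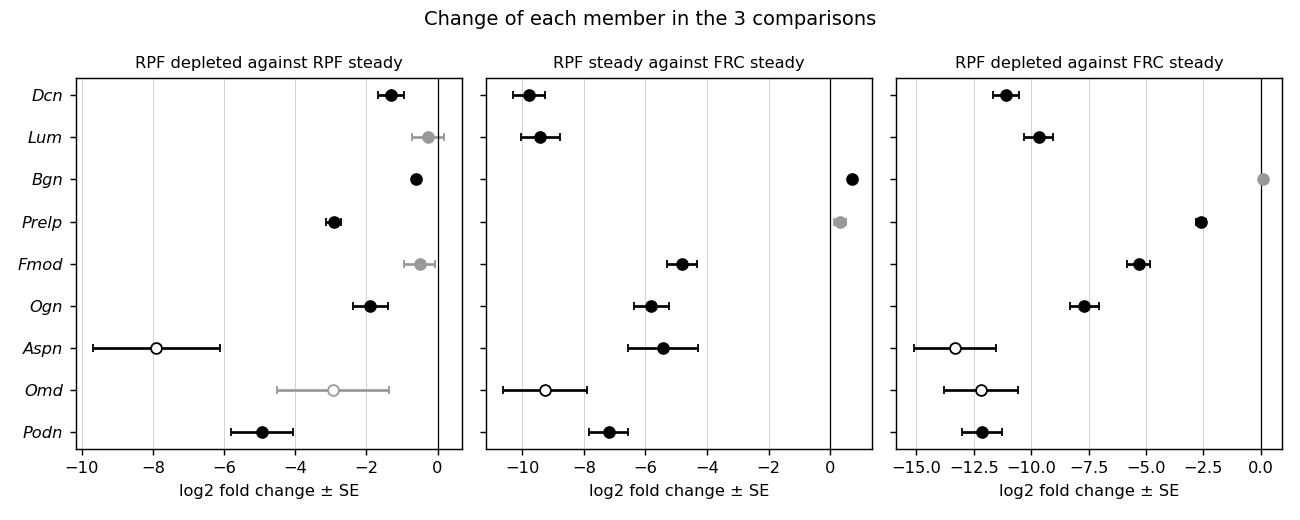
Log2 fold change of each member in the 3 comparisons (RPF depleted against RPF steady, RPF steady against FRC steady, RPF depleted against FRC steady), with bars of 1 SE on either side. Black points are called at an adjusted p under 0.05 and grey points are not; open points have a group with at most 3 counts, so their fitted place is no bound. Bgn and Prelp lie within 3 log2 units of 0 in all 3 comparisons, and the other 7 members lie at -4.80 or lower against FRC steady.

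In steady-state red pulp, replicate 2 was the highest of the 3 libraries for 7 of the 9 members, as for 33.4% of all genes tested with a count in RPF steady. The exceptions were Bgn, highest in replicate 3, and Podn, highest in replicate 1, and Omd peaked in replicate 2 on 3 counts. Of the 9 genes of capsule and adventitial fibroblasts, 3 were also highest in replicate 2 (Cd34, Clec3b and Mfap5), 5 in replicate 1 and 1 in replicate 3. Over RPF steady replicates 1 to 3, Cd34 had 3.26, 5.67 and 0.0992 CPM, Clec3b 2.92, 4.44 and 3.74, and Mfap5 1.09, 2.57 and 0.860. Among the 5 genes highest in replicate 1, Dpt had 17.4, 7.88 and 8.73 CPM and Ly6c1 481, 339 and 421. The list summed to 382 to 451 CPM in RPF depleted, 960 to 1578 in RPF steady and 1592 to 1950 in FRC steady, with 0 to 2 of the 9 genes at 0 per library. Most of the sum in RPF steady came from Ly6a and Ly6c1, and it was lowest in replicate 2. Of that list, 3 genes were called lower in RPF depleted (Ly6c1, Ly6a and Clec3b), as were 6 members of the family and 9.96% of all genes tested. Endothelial genes summed to 6.78, 2.94 and 9.39 CPM in RPF depleted and 27.4, 36.7 and 12.4 CPM in RPF steady. In FRC steady they summed to 6.89, 23.0 and 7.16 CPM. Of the 5 genes, Stab2 gave most of the sum over the RPF steady libraries, and only Stab2 was highest in replicate 2 there. Pecam1 and Prox1 were highest in replicate 1 of RPF steady and Cdh5 in replicate 3. Lyve1 was at 0 in all RPF libraries, and none of the 4 tested was called between RPF depleted and RPF steady. The part of either kind of cell in the result was not tested. Mesothelial genes summed to 0 to 2.18 CPM in RPF depleted, 0 to 11.4 in RPF steady and 7.64 to 12.1 in FRC steady. All 6 mesothelial genes were at 0 in RPF steady replicate 2, and the part of mesothelial cells was not tested. Mural cell genes summed to 1810 to 2236 CPM in RPF depleted, 706 to 1068 in RPF steady and 1462 to 1683 in FRC steady. Des gave most of that sum, at 1657 CPM in RPF depleted, 771 in RPF steady and 985 in FRC steady. Of these 6 genes, 3 were called higher in RPF depleted than in RPF steady (Mcam, Des and Notch3), beside 11.1% of all genes tested. Myh11, Rgs5 and Cspg4 were not called. Rgs5 stood at 0.111 CPM in RPF depleted, 0.138 in RPF steady and 323 in FRC steady, and Cspg4 at 0.0239, 0.452 and 21.5 CPM. The part of mural cells was not tested either.

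RPF depleted against FRC steady mixes organ and treatment, is the sum of the other comparisons on the log scale and shares their libraries. In it 8 members were called lower and 0 higher by edgeR, against 18.8% and 16.9% of all genes tested and 35.8% in either direction. The groups did not overlap for 8 members, as for 50.3% of all genes tested, and 0 members were higher at an unadjusted p under 0.05, with DESeq2 or with limma-voom. Prelp, uncalled between RPF steady and FRC steady, had 36.9, 56.6 and 56.6 CPM in RPF depleted against 277, 313 and 316 CPM in FRC steady, and was 6.04-fold lower in RPF depleted (log2 -2.59, SE 0.21, adjusted p 2.14e-05). Bgn, called in both other comparisons, had 2959, 3391 and 2781 CPM in RPF depleted against 2740, 2835 and 3039 CPM in FRC steady. The groups overlapped (log2 0.08, SE 0.10, adjusted p 0.547). Scaled by total count alone, Bgn had 3110, 3564 and 2975 CPM in RPF depleted and 2264, 2253 and 2322 CPM in FRC steady, a called log2 difference of 0.50 (adjusted p 0.0022). Dcn was 2186-fold, Lum 814-fold, Fmod 39.6-fold and Ogn 206-fold lower in RPF depleted than in FRC steady. Without RPF depleted replicate 2 the log2 difference of Ogn was -8.55, against -7.69 with all libraries, and without RPF depleted replicate 3 that of Lum was -10.27, against -9.67. Podn was 4491-fold lower on 4 depleted counts (log2 -12.13), with a log2 difference of -13.37 without RPF depleted replicate 2 and -11.49 without RPF depleted replicate 3. Against the floor, Omd was at least 611-fold lower (376 to 737 with 1 library left out) and Aspn at least 1307-fold lower (805 to 1624).

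Most members sit beside another member in the genome (build mm10). Prelp (ENSMUSG00000041577, chr1:133910304-133921414, minus strand) and Fmod (ENSMUSG00000041559, chr1:134037254-134048277, plus strand) lie 115.8 kb apart. Dcn (ENSMUSG00000019929, chr10:97479609-97518143) and Lum (ENSMUSG00000036446, chr10:97565128-97572703) lie 47.0 kb apart on the plus strand. Aspn (ENSMUSG00000021388, chr13:49544443-49567565), Omd (ENSMUSG00000048368, chr13:49582462-49592822) and Ogn (ENSMUSG00000021390, chr13:49608046-49624501) follow each other on the plus strand with gaps of 14.9 and 15.2 kb. No other protein-coding gene lies wholly between these neighbours. Bgn (ENSMUSG00000031375, chrX:73483602-73495933, plus strand) and Podn (ENSMUSG00000028600, chr4:108014791-108096445, minus strand) stand alone. Dcn and Lum, and Aspn, Omd and Ogn, shared the direction of their difference between RPF steady and FRC steady. That direction was not particular to neighbours, as 7 of the 9 members were called lower, Podn among them. Prelp and Fmod did not share a call: Prelp overlapped between RPF steady and FRC steady at 307 to 448 and 277 to 316 CPM, while Fmod was 27.95-fold lower in RPF steady.

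Some members overlap other genes, and the labels do not say whether counting used strand. Aspn, Omd and Ogn lie inside Cenpp, a centromere gene on the opposite strand, which had 44, 147 and 60 counts in RPF depleted, 28, 111 and 46 in RPF steady and 44, 1 and 36 in FRC steady. Ogn had only 41, 167 and 62 counts in RPF depleted, so its low level there is uncertain. Podn shares part of its span and its strand with Scp2, a sterol carrier, at 18.2 ± 2.58 CPM in RPF depleted, 55.5 ± 2.37 in RPF steady and 59.5 ± 10.5 in FRC steady (SD, n = 3). Prelp is overlapped by the antisense RNA Gm15851, which had 4 counts in RPF steady replicate 1 and 0 in the other 8 libraries. Bgn is X-linked and was lowest in replicate 1 of both RPF steady and FRC steady, the libraries that lack Y-linked reads. Without these libraries Bgn was called as before in RPF depleted against RPF steady and in RPF steady against FRC steady.

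For 8 members, the gene with the most similar pattern over the 9 libraries was taken as the one with the smallest root mean square difference in centred log2(CPM + 0.5), among 8666 protein-coding genes with a mean of at least 10 CPM. The nearest gene to Bgn was March8, a ubiquitin ligase, at 0.0844 log2 units, with 82.5 CPM in RPF depleted, 123 in RPF steady and 72.8 in FRC steady. Prelp was nearest to Aaed1 at 0.137, with 24.4 CPM in RPF depleted, 174 in RPF steady and 169 in FRC steady. For Dcn it was Adh1, an alcohol dehydrogenase, at 0.376, with 0.133 CPM in RPF depleted, 0.553 in RPF steady and 1045 in FRC steady. The nearest genes to 5 others were Enpp2, which makes lysophosphatidic acid, for Lum (0.570), Adamts20 for Fmod (0.420), Thbs3 for Ogn (0.476), Col15a1 for Aspn (0.480) and Sostdc1 for Podn (0.569). These likenesses are read from 9 libraries in 3 groups and describe the group pattern for the most part. Adh1, Adamts20, Col15a1 and Sostdc1 averaged 0.0281 to 0.553 CPM in the RPF groups, near or below the 0.5 added. Their distances therefore depend on that constant.

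Among 9 additional leucine-rich repeat proteins of the wider family, 8 were in the table and 5 were tested. In RPF depleted against RPF steady 1 was called higher and 1 lower, beside 11.1% and 9.96% of all genes tested. Tsku, a secreted protein that modulates growth factor signals, had 155 ± 19.5 CPM in RPF depleted and 62.6 ± 16.5 in RPF steady, a 2.48-fold higher level in RPF depleted (SD, n = 3, edgeR adjusted p 0.00637). Ecm2, a matrix protein, had 0.365 ± 0.439 CPM in RPF depleted, 9.15 ± 2.87 in RPF steady and 362 ± 33.9 in FRC steady. It was 23.6-fold lower in RPF depleted than in RPF steady (adjusted p 0.000988), with a log2 difference of -6.32 without RPF depleted replicate 3. In RPF steady against FRC steady 2 were called lower by edgeR, and 3 at an unadjusted p under 0.05, with DESeq2 or with limma-voom. The number called higher was 0 by edgeR and 0 by each of these. Of all genes tested, edgeR called 14.4% lower and 11.5% higher. Ecm2 was 39.4-fold lower (adjusted p 0.00017), and Epyc had 0 counts in RPF steady and 2.90 ± 1.73 CPM in FRC steady (adjusted p 0.016, or 0.0873 without FRC steady replicate 1). The Epyc call was also lost without both libraries that lack Y-linked reads. Epyc was at 0 in all RPF libraries, so it passed the filter only through FRC steady and could not be called higher in RPF.

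Enzymes that build chondroitin and dermatan sulfate chains were called about as often as other genes after depletion. Of 20 tested genes of chondroitin and dermatan sulfate synthesis, 3 were called higher and 1 lower in RPF depleted than in RPF steady. That share was near the 21% of all genes tested, and the median log2 fold change was -0.21. Over the other settings 2 to 3 were called higher and 0 to 4 lower. Chst11, a chondroitin 4-O-sulfotransferase, had 192 ± 54.6 CPM in RPF depleted and 33.3 ± 2.37 in RPF steady, 5.77-fold higher in RPF depleted (SD, n = 3, edgeR adjusted p 0.00414). Chpf, a chain-polymerising factor, was 1.39-fold higher (adjusted p 0.00966). It was not called under total-count scaling or without both libraries that lack Y-linked reads. B3galt6, which adds a linker sugar, was 2.08-fold higher (adjusted p 0.013). Ust, a uronyl 2-O-sulfotransferase, was 1.65-fold lower (adjusted p 0.0369). Without RPF depleted replicate 1 or RPF steady replicate 2 neither Ust nor B3galt6 was called (adjusted p up to 0.122 and 0.0586). Ust was not called either without RPF depleted replicate 3, RPF steady replicate 1 or 3, or FRC steady replicate 1 or 3. Its call was also lost in the compared groups alone and without both libraries that lack Y-linked reads.

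In RPF steady against FRC steady, 9 of these 20 genes were called higher and 3 lower, where 11.5% of all genes tested were called higher and 14.4% lower, with a median log2 fold change of 0.61. Chst15, which adds a second sulfate to chondroitin, had 548 ± 35.4 CPM in RPF steady and 116 ± 12.6 in FRC steady, 4.71-fold higher in RPF steady (SD, n = 3, edgeR adjusted p 4.5e-06). Chpf was 1.85-fold lower (adjusted p 0.000234) and Ust 2.58-fold lower (adjusted p 0.00139). Xylt2, which starts the chain, was 1.75-fold lower at an adjusted p of 0.0487 and kept that call in 6 of 19 settings. The number called higher lay between 5 and 11 over the other settings. Of 5 tested genes of keratan sulfate synthesis, 1 was called higher and 2 lower. Chst1, a keratan sulfate sulfotransferase, had 121 ± 24.0 CPM in RPF steady and 4.53 ± 0.501 in FRC steady, 26.6-fold higher in RPF steady (adjusted p 4.5e-06). Chst2 was 3.82-fold lower (adjusted p 0.00393), and B4galt1, a galactosyltransferase, was 1.52-fold lower (adjusted p 0.0244). The B4galt1 call was lost under total-count scaling (adjusted p 0.923), under upper quartile scaling and in the compared groups alone. It was also lost without RPF steady replicate 2 or 3 or FRC steady replicate 1 or 2. In RPF depleted against RPF steady 1 of the 5 was called higher and 1 lower, beside 11.1% and 9.96% of all genes tested. B4galt1 was 1.91-fold higher (adjusted p 0.00371) and Chst2 was 2.53-fold lower (adjusted p 0.0262). Chst2 was not called without RPF depleted replicate 1 or 2 or RPF steady replicate 2 or 3, or with limma-voom (adjusted p up to 0.099 over these settings).

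Most of the listed fibril-forming and fibril-associated collagens were lower in red pulp too. In RPF steady against FRC steady 10 of 12 tested collagens were called lower and 1 higher, beside 14.4% and 11.5% of all genes tested. Their median log2 fold change was -2.10, beside -0.02 over all genes tested. Col6a1, a chain of the beaded-filament collagen VI, had 97.1 ± 14.2 CPM in RPF steady and 4748 ± 545 in FRC steady, 48.9-fold lower in RPF steady (SD, n = 3, edgeR adjusted p 4.13e-07). Col6a2 was 16.6-fold lower (adjusted p 9.78e-07) and Col6a3 4.36-fold lower (adjusted p 3.27e-06). Col14a1, a fibril-associated collagen, had 2805 ± 129 CPM in RPF steady and 605 ± 191 in FRC steady, 4.64-fold higher in RPF steady (adjusted p 0.000184). In RPF depleted against RPF steady 6 were called lower and 2 higher, beside 9.96% and 11.1% of all genes tested. Their median was -0.51, beside -0.09 over all genes tested. Col1a2, a chain of collagen I, was 2.30-fold lower at 806 ± 123 CPM in RPF depleted and 1855 ± 73.2 in RPF steady (adjusted p 0.000186). Col6a1 was 3.10-fold lower (adjusted p 0.000202). Col12a1 had 234 ± 6.21 CPM in RPF depleted and 52.5 ± 19.8 in RPF steady, 4.45-fold higher in RPF depleted (adjusted p 0.000869), and Col5a1, which starts fibrils, was 1.91-fold higher (adjusted p 0.00132).

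Proteases known to cut family members were listed with Pcolce, which is no protease but enhances the procollagen cut by Bmp1. In RPF depleted against RPF steady 5 of these 10 genes were called higher and 4 lower, beside 11.1% and 9.96% of all genes tested. Mmp3, stromelysin, had 3455 ± 1303 CPM in RPF depleted and 49.8 ± 22.2 in RPF steady, 69.4-fold higher in RPF depleted (SD, n = 3, edgeR adjusted p 0.000101). Adamts4, an aggrecanase also known to cut Bgn, had 186 ± 18.3 CPM in RPF depleted and 22.6 ± 5.45 in RPF steady, 8.25-fold higher in RPF depleted (adjusted p 3.37e-05). Mmp2, a gelatinase, was 2.72-fold lower, at 133 ± 2.03 CPM in RPF depleted and 362 ± 66.4 in RPF steady (adjusted p 0.00025). The others called higher were Mmp14 (2.24-fold), Adamts1 (3.40-fold) and Mmp13, which had 11.1 ± 6.75 CPM in RPF depleted and 0 counts in RPF steady. Mmp13 was at 0 in FRC steady too, so it passed the filter only through RPF depleted and could not be called lower there. The others called lower were Pcolce (2.38-fold), Adamts5 (8.28-fold) and Bmp1 (1.49-fold), a protease that processes Bgn. Adamts5 and Bmp1 were not called without RPF depleted replicate 1, RPF steady replicate 2 or both libraries that lack Y-linked reads. Bmp1 was not called either without RPF depleted replicate 2, RPF steady replicate 3 or FRC steady replicate 1. Over these settings the adjusted p reached 0.0644 for Adamts5 and 0.144 for Bmp1. Without RPF depleted replicate 3 the log2 difference of Adamts5 was -4.45, against -3.05 with all libraries. In RPF steady against FRC steady 14.4% of all genes tested were called lower and 11.5% higher. Of this list 8 were called lower and 0 higher by edgeR, with 1 higher at an unadjusted p under 0.05 or with DESeq2 and 0 with limma-voom. Among them were Mmp2, 5.85-fold lower (adjusted p 5.55e-06), Adamts1, 22.1-fold lower (adjusted p 1.12e-05), and Adamts4, 5.12-fold lower (adjusted p 3.05e-05). Tll1, also called lower, had at most 0.0395 CPM in any RPF library, so it passed the filter only through FRC steady.

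**Figure D4:**
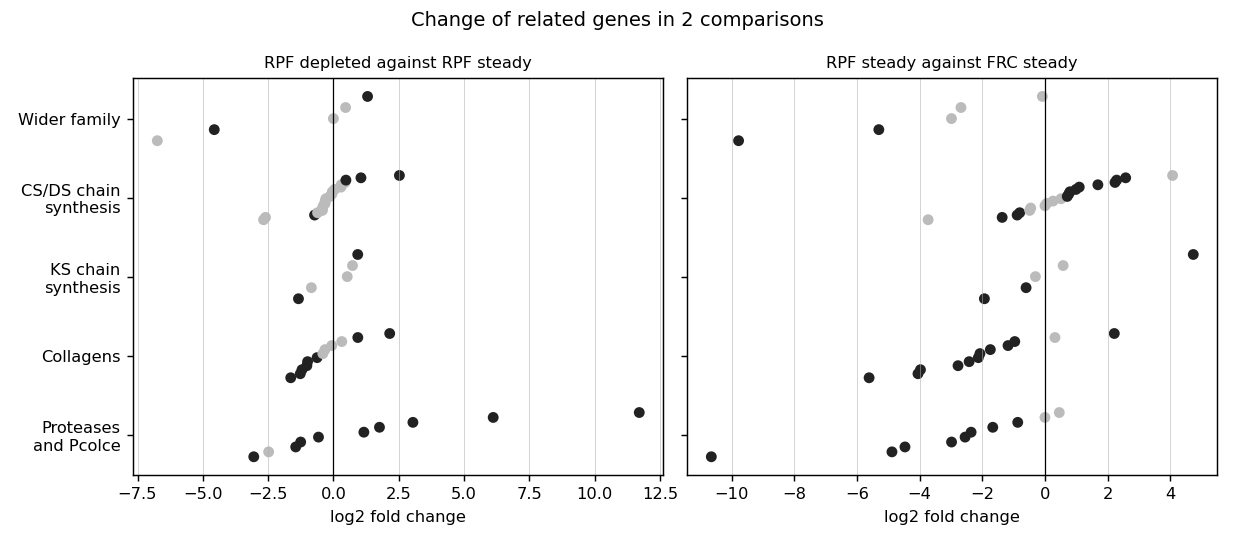
Log2 fold change of each tested gene of 5 related lists in RPF depleted against RPF steady and in RPF steady against FRC steady; black points are called at an adjusted p under 0.05 and grey points are not. Points of genes with a group at 0 counts, such as Mmp13, depend on the fit's prior. In RPF steady against FRC steady 10 of 12 collagens and 8 of the 10 genes of the protease list, Pcolce among them, are called lower, and 9 of 20 genes of chondroitin and dermatan sulfate synthesis are called higher. Of all genes tested, 14.4% are called lower and 11.5% higher in that comparison.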

How the data were processed

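PolyA RNA of 9 libraries was measured by RNA-seq, and all values come from the raw read counts per Ensembl gene that the authors deposited. Per the submitters' processing notes, cutadapt 1.10, Bowtie2 2.2.8, STAR 2.5.3a, HTSeq 0.6.1p1 and build mm10 were used; they state neither strand use nor an annotation release. The median transcript length in bases is another deposited value, used only to set levels per kilobase. The table's 24 further per-sample columns, raw counts of 2 other libraries among them, were not used.

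Counts were fitted with edgeR 4.0.16 in R 4.3.3: filterByExpr, TMM scaling, a term per group, the robust quasi-likelihood test with 6 residual degrees of freedom, two-sided, and Benjamini-Hochberg adjustment over all 15103 genes tested. Replicate libraries are different pools of mice and differed beyond sampling noise (chi-square per degree of freedom 72.9 to 133); FRC and RPF steady share mice, and the fit treats them as independent. For a group with 0 counts the fold is bounded by assuming 3 counts in the whole group, and 1 to 3 counts give a ratio with a 95% counting interval; both cover counting error only. At 25414645 counts or more per library, counting error is small for all but the lowest members. The model was tested on simulated counts. The members and gene lists were chosen with earlier results of these data known. Each list's 3 called genes of smallest p in a comparison are named, with any that a count of 5 or fewer singles out. Other settings tried were upper quartile and RLE scaling, filters of 0 or 1 CPM, DESeq2 1.42.0, limma-voom (limma 3.58.1), no robust prior, the compared groups alone and leaving out each library. Scaling by total count, and leaving out both libraries that lack Y-linked reads, were added after seeing the data. The gene with the pattern nearest to Omd is not reported here.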

Additional observations from a re-analysis of the deposited data

How the results depend on the processing

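Of the members' log2 fold changes, recomputed under up to 19 other settings, 149 of 169 values in RPF depleted against RPF steady kept their direction and side of the threshold, as did 169 of 171 in RPF steady against FRC steady and 170 of 171 in RPF depleted against FRC steady. With each library left out in turn, the log2 fold change of Lum in RPF depleted against RPF steady ran from -0.87, without RPF depleted replicate 3, to 0.32, a change of sign, without RPF steady replicate 2 (adjusted p 0.698); the cause was not tested. The number of members called lower in RPF depleted against RPF steady, 6, was 3 under limma-voom and 3 in a fit of the compared groups alone, and 3 to 6 with each library left out in turn, lowest without RPF depleted replicate 3. Dcn and Ogn lost that call in 8 of 19 settings each (adjusted p 0.000485 to 0.116 and 0.000239 to 0.164) and Aspn in 3 of 18 (1.05e-05 to 0.124). Aspn did not pass the filter in the fit of the compared groups alone. Total-count scaling gave 2 members called higher in RPF steady and 1 in RPF depleted, both against FRC steady, for main counts of 1 and 0. It also gave 3935 genes called higher and 1342 lower in RPF steady against FRC steady (main 1734 and 2174), and 3933 higher in RPF depleted against FRC steady (main 2557). Genes called lower in RPF depleted against RPF steady numbered 2312 with DESeq2, 968 without RPF steady replicate 2 and 963 without the libraries that lack Y-linked reads (main 1505); without those libraries, 1129 were higher in RPF steady than in FRC steady. No paired analysis was possible because the labels carry no replicate numbers shared between groups. Depth limits Omd, Aspn and Podn in RPF, which rest on few counts.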

Other observations

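Receptors and ligands known to bind family members were listed as well. In RPF depleted against RPF steady 4 of 13 tested genes were called higher and 1 lower, beside 11.1% and 9.96% of all genes tested. Itgb1, the integrin beta 1 chain through which cells hold collagen, had 2542 ± 97.0 CPM in RPF depleted and 1330 ± 125 in RPF steady, 1.91-fold higher in RPF depleted (SD, n = 3, edgeR adjusted p 0.000566). Tgfb1, a cytokine that Dcn and Bgn bind, had 153 ± 32.3 CPM in RPF depleted and 67.5 ± 3.86 in RPF steady, 2.27-fold higher in RPF depleted (adjusted p 0.00461). Tgfb3 was 2.16-fold higher (adjusted p 0.0156, or up to 0.0559 without RPF depleted replicate 3 or RPF steady replicate 3). Egfr was 1.81-fold higher (adjusted p 0.0239). That call was lost without RPF depleted replicate 1 or any RPF steady library. It was also lost without both libraries that lack Y-linked reads and under total-count scaling (adjusted p up to 0.0912 over these settings). Lrp1, an endocytic receptor that takes up Dcn, was 1.84-fold lower (adjusted p 0.0123). In RPF steady against FRC steady 2 were called higher and 7 lower, beside 11.5% and 14.4% of all genes tested. Of the 7, Tgfb2 had at most 0.0851 CPM in any RPF library, so it passed the filter only through FRC steady. Tgfb1 had 67.5 ± 3.86 CPM in RPF steady and 8.32 ± 2.13 in FRC steady, 8.11-fold higher in RPF steady (adjusted p 2.07e-05), and Itgb1 was 1.85-fold higher (adjusted p 0.000479). Egfr was 5.57-fold lower (adjusted p 6.79e-05) and Tgfb3 4.51-fold lower (adjusted p 0.000374).

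Outside the family 4 genes were tested, of which Hapln3 encodes a link protein and the others proteoglycans. In RPF depleted against RPF steady 1 was called higher and 0 lower by edgeR, beside 11.1% and 9.96% of all genes tested. The number lower was 2 at an unadjusted p under 0.05, 2 with DESeq2 and 1 with limma-voom. Versican (Vcan), a large hyaluronan-binding proteoglycan, had 145 ± 74.6 CPM in RPF depleted and 9.84 ± 4.74 in RPF steady, 14.7-fold higher in RPF depleted (SD, n = 3, edgeR adjusted p 0.000505). Both Vcan, at 61.9 ± 3.63 CPM in FRC steady, and serglycin (Srgn), at 10.8 ± 3.00 CPM in RPF steady and 183 ± 9.71 in FRC steady, were called lower in RPF steady than in FRC steady (6.27-fold, adjusted p 0.0022, and 16.9-fold, adjusted p 6.89e-05). Perlecan (Hspg2), a basement membrane proteoglycan, had 896 ± 184 CPM in RPF depleted, 1254 ± 186 in RPF steady and 1229 ± 211 in FRC steady, with no call in either comparison (adjusted p 0.1 and 0.935).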
